A study of Mus musculus with 4 samples.

Results

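The Wnt ligands, receptors and antagonists were examined in fibroblast activation protein-positive (FAP+) cells of a mouse pancreatic tumour, split by the surface sialomucin CD34. Members were the genes of the deposited count table named Wnt, Fzd, Sfrp, Dkk, Rspo, Axin or Lgr with a number, together with Lrp5, Lrp6, Frzb, Wif1, Lef1 and Tcf7. This gave 52 of 22609 genes: 19 Wnt ligands, 10 Frizzled receptors, 2 Lrp co-receptors, 7 R-spondins and Lgr receptors, 10 secreted antagonists and 4 intracellular components (Axin1, Axin2, Tcf7 and Lef1). Each fraction, FAP+ CD34+ and FAP+ CD34-, was sequenced as 2 libraries of amplified RNA. All came from a model of spontaneous pancreatic ductal adenocarcinoma on a C57BL/6 background, and the labels name no treatment. The titles call the libraries biological replicates, but no label gives the animals behind each, their age or the alleles that drive the tumour, so the p-values measure only the spread between these libraries, which may be technical. Total counts ran from 10322354 to 14633561 per library. Values are given for replicate 1 and then replicate 2 of each fraction, in CPM, the read count scaled to the library total. Cd34 stood at 143 and 293 CPM in CD34+ cells and 18.3 and 23.9 CPM in CD34- cells, higher in the CD34+ fraction, and Fap at 79 and 39.8 CPM with CD34, against 142 and 136 CPM without it, lower in the CD34+ cells. Even for Cd34 the log2 fold change of 3.37 ± 0.43 (SE; edgeR adjusted p = 0.141) did not pass the test over all genes that is used below. All 10 fibroblast markers, led by Col1a2, were counted in every library, with a summed level of 42354 to 45869 CPM. Groups overlapped for 6 of them. The other 4 (Col1a2, Col3a1, Pdgfrb and Fap) were lower in both CD34+ libraries, as were 26.6% of all tested genes. Pdgfrb was 296 and 330 CPM in CD34+ cells and 599 and 486 CPM in CD34- cells.

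Wnt proteins are lipid-modified secreted signals that bind a Frizzled receptor, and with the co-receptors Lrp5 or Lrp6 they keep beta-catenin from being degraded by a complex built on Axin, so that it can act with the DNA-binding factors of the TCF and LEF family. Sfrp proteins, Frzb and Wif1 bind Wnt ligands outside the cell, Dkk1, Dkk2 and Dkk4 block the Lrp co-receptors, and R-spondins acting through Lgr4, Lgr5 and Lgr6 keep Frizzled receptors at the surface. Fibroblasts are a common source of both the ligands and the secreted antagonists in epithelial organs.

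Promoter windows are given first for the 2 members of highest mean RPKM in each direction among those with an unadjusted p under 0.05, since the results turn on them: Rspo1 and Wnt4, higher in CD34+ libraries, and Frzb and Fzd1, lower. RPKM is the deposited level scaled to gene length and library size. Each runs from 250 bases before to 50 bases after the annotated start, 5′ to 3′ on the gene's strand, as RefSeq gives it for the GRCm38.p6 assembly, which is not the mm9 build named for the counts. Capitals mark CG pairs, a feature chosen after the values were seen. The windows are chr4:124986180-124986479 (+) for Rspo1, chr4:137277385-137277684 (+) for Wnt4, chr5:4758167-4758466 (-) for Fzd1 and chr2:80447347-80447646 (-) for Frzb.
Rspo1: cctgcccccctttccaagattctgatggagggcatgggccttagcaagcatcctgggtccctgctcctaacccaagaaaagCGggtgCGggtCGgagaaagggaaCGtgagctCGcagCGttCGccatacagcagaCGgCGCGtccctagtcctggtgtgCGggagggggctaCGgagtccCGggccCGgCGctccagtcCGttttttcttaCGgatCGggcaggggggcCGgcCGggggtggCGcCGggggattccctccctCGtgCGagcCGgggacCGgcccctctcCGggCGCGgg
Wnt4: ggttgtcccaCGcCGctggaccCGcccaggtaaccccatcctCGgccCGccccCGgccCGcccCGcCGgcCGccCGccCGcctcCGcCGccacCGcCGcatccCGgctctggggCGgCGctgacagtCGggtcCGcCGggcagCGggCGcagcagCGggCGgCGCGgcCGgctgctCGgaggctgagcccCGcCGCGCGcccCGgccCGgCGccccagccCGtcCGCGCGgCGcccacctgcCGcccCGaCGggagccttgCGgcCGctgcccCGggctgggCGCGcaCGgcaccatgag
Fzd1: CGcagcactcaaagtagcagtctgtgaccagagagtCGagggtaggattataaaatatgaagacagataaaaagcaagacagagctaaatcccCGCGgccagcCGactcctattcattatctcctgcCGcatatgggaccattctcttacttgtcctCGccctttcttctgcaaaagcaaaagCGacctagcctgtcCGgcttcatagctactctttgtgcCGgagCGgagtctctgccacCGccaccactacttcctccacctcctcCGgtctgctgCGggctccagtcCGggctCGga
Frzb: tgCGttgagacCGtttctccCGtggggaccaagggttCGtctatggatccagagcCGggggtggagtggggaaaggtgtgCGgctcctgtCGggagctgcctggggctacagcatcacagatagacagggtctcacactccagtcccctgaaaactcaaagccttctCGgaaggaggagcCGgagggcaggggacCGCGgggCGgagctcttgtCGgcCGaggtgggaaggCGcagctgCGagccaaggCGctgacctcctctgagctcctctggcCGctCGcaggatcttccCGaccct

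These windows held 29 CG pairs in Rspo1, 51 in Wnt4, 16 in Fzd1 and 20 in Frzb, against a median of 24 over the 41 windows of the 34 members that the RefSeq table holds and of 7 over all 32851 windows. The letters CTTTGAT, the core of the motif that TCF and LEF factors bind, were searched on both strands. They were found in 2 of the members' 41 windows (4.88%) and in 3.73% of all windows. The matches lay in 1 of 2 windows of Wnt11 and 1 of 3 of Wnt5b, and none lay in the windows of Rspo1, Wnt4, Fzd1, Frzb, Tcf7, Lef1 or Axin2. The Wnt11 window, chr7:98834862-98835161 (+), is shown with the match in capitals, on the strand opposite to the gene and 51 bases before the start.
Wnt11: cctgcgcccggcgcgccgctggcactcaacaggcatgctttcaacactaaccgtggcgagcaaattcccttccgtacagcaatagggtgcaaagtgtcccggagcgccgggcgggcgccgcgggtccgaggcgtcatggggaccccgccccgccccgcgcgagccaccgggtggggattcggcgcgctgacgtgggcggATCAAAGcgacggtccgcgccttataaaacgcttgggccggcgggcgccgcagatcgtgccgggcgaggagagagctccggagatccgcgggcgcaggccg

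A count test was possible for 39 members, and 13 had too few reads. With edgeR's quasi-likelihood test and p adjusted over all 13875 tested genes, 0 members were called in either direction, against 0% of all tested genes (0 genes). Without adjustment, 4 members lay higher and 5 lower at p under 0.05. These were Rspo1, Wnt4, Rspo3 and Sfrp5 on the higher side and Frzb, Wnt2b, Tcf7, Fzd3 and Fzd1 on the lower side. That is 23.1% of the tested members beside 16.5% of all tested genes (9.81% higher and 6.65% lower), so the members stood close to the table as a whole. The CD34+ and CD34- libraries did not overlap in CPM for 15 tested members, 6 higher and 9 lower, or 38.5% beside 50.1% of all tested genes (23.4% higher and 26.6% lower). The median log2 fold change (CD34+ over CD34-) was -0.21 over the tested members and -0.02 over all tested genes, with 18 members positive and 21 negative. Other tools called 1 or 2 members: DESeq2 and edgeR's exact test called Rspo1 and Wnt4 higher, and edgeR without a filter called Rspo1 (4.15%, 4.87% and 1.58% of their genes were called). With the replicate number as a term edgeR called Rspo1 and 0.447% of genes, and limma voom called 0. Without CD34- replicate 2, 3 members lay higher and 0 lower at an unadjusted p under 0.05, and without CD34- replicate 1 the numbers were 2 and 6. In these sorted bulk samples, fewer cells of a type and less RNA per cell cannot be told apart.

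**Figure D1:**
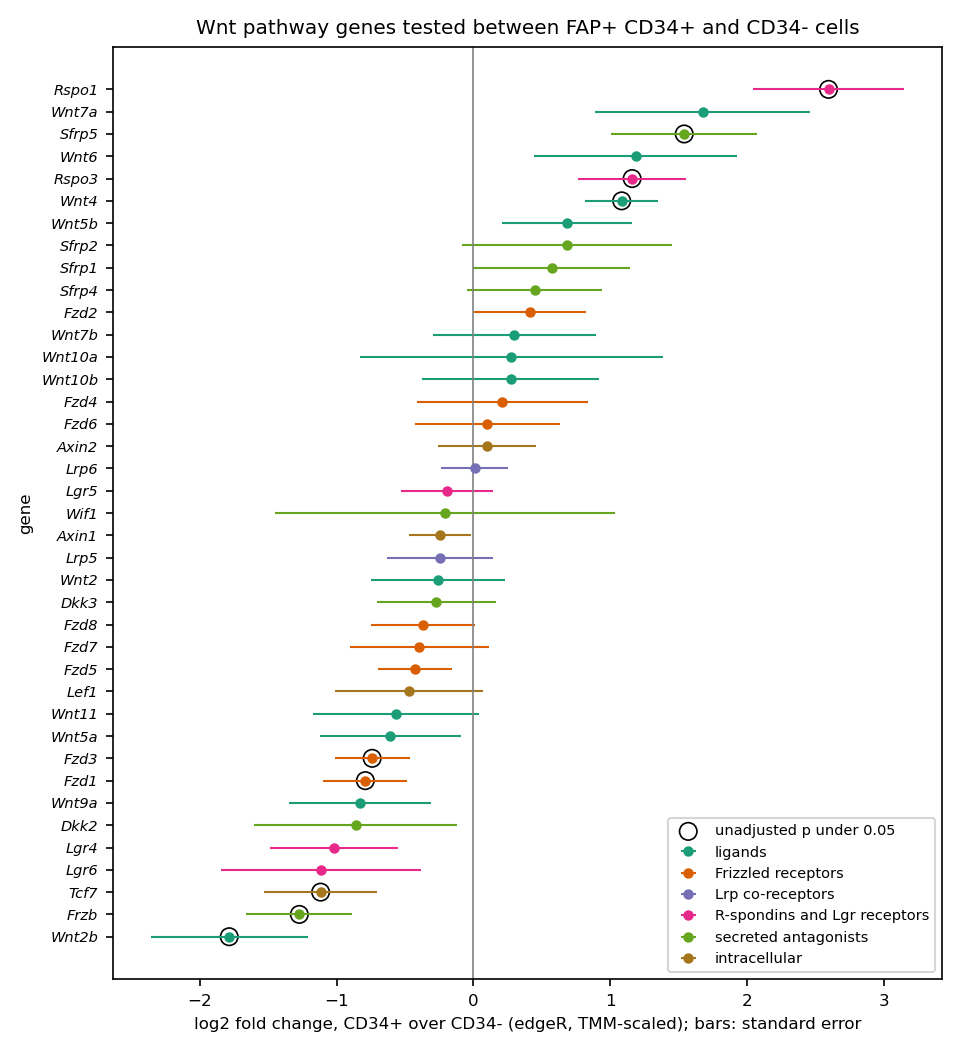
Log2 fold change of CD34+ over CD34- libraries (edgeR, TMM-scaled) for the 39 tested Wnt pathway genes, coloured by role, with bars of 1 standard error and circles around the 9 genes with an unadjusted p under 0.05. Rspo1 lies farthest to the right at 2.60 and Wnt2b farthest to the left at -1.78; none passed after adjustment over all genes.

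By mean RPKM the ligands were led by Wnt2, Wnt11 and Wnt4, and Wnt4 had the lowest p of the ligands. Wnt4, which acts in kidney and gonad development, was 202 and 171 CPM (CD34+) compared with 104 and 75.2 CPM (CD34-). Both CD34+ libraries lay above both CD34- libraries, with a log2 fold change of 1.09 ± 0.27 (SE; edgeR adjusted p = 0.197). Over the alternative tests its adjusted p ran from 0.0298 to 0.63, and it was called by DESeq2 at 0.0298 and by the exact test of edgeR at 0.0436. Wnt2, a ligand of lung and placental mesenchyme, was 109.8 and 44.4 CPM in CD34+ cells and 72.2 and 113 CPM in CD34- cells. Its groups overlapped, with a log2 fold change of -0.26 ± 0.49 (SE; edgeR adjusted p = 0.814). Wnt11, which is best known for signalling without beta-catenin in cell movement, was 128 and 44.4 CPM with CD34, against 80 and 175 CPM without it, again overlapping, with a log2 fold change of -0.56 ± 0.61 (SE; edgeR adjusted p = 0.659). The sign of both turned without CD34+ replicate 2 (0.27 for Wnt2 and 0.02 for Wnt11) and without CD34- replicate 2 (0.22 and 0.23). CD34+ replicate 2 held the lowest Wnt2 and Wnt11 of all libraries, and CD34- replicate 2 the highest.

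Per gene length, the make-up of the ligand pool can be read within a library from the RPKM, since the library total cancels. Wnt4 made up 30.2% and 33.6% in CD34+ cells and 20.9% and 10.3% in CD34- cells of the summed RPKM of the 19 Wnt genes, and its rank among them was 1 in both CD34+ libraries, 3 in CD34- replicate 1 and 4 in CD34- replicate 2. Wnt2 made up 29.8% and 15.7% in CD34+ cells and 26.2% and 28.1% in CD34- cells. Wnt11 held 26.3% and 11.9% in CD34+ cells and 22.1% and 32.9% in CD34- cells. The ratio of Wnt4 to Wnt2 was therefore 1.02 and 2.13 in CD34+ cells against 0.799 and 0.367 in CD34- cells. With 2 libraries a group an exact permutation test cannot go below p = 0.333, so these shares were not tested.

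**Figure D2:**
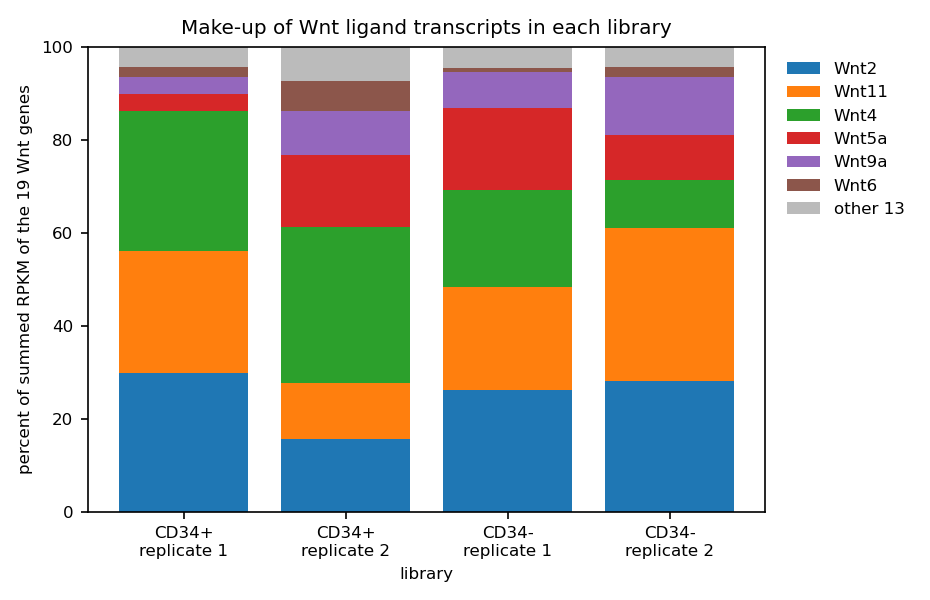
Share of each ligand in the summed deposited RPKM of the 19 Wnt genes (percent, vertical axis) in each of the 4 libraries (bars), with the 13 ligands of lowest mean RPKM pooled in grey. The Wnt4 segment takes 30.2% and 33.6% in CD34+ cells and 20.9% and 10.3% in CD34- cells.

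Among the other ligands, Wnt5a, the classical ligand of Ror2 and of beta-catenin-independent signalling, was 27 and 88.6 CPM (CD34+) compared with 98.1 and 80 CPM (CD34-). CD34+ replicate 1 stood below the other 3 libraries, which lay within 80 to 98.1 CPM. Wnt9a was 21.2 and 42.3 against 33.3 and 78.6 CPM and Wnt6 7.46 and 17.6 against 2.19 and 8.61 CPM, and both overlapped between groups. Wnt5b, a close relative of Wnt5a, was 4.84 and 10.1 against 4.77 and 4.65 CPM. Its groups were apart by a narrow margin and its log2 fold change was 0.68 ± 0.47 (SE; edgeR adjusted p = 0.498). It was 0.08 without CD34+ replicate 2 and 0.092 on log2 FPKM + 1, a scale that moved the median of all tested genes by -0.29. Under a mean of 5 CPM, Wnt2b was 1.07 and 3 against 6.88 and 7.45 CPM, lower in both CD34+ libraries, with a log2 fold change of -1.78 ± 0.57 (SE; edgeR adjusted p = 0.243) and counts of 11 and 41 against 91 and 109. Wnt7a was 6.68 and 1.76 against 0.908 and 1.71 CPM, where CD34+ replicate 1 stood apart and CD34+ replicate 2 lay next to CD34- replicate 2. Wnt7b, Wnt10a and Wnt10b overlapped between groups, at 0.454 to 5.23 CPM.

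Among the receptors, Fzd1 had the highest RPKM of the Frizzled genes in every library and was lower in CD34+ cells. Fzd1, a receptor for both classes of Wnt signal, was 440.5 and 420.0 CPM in CD34+ cells and 669 and 829.9 CPM in CD34- cells. The CD34+ libraries lay within 420.0 to 440.5 CPM and did not reach the CD34- libraries, with a log2 fold change of -0.79 ± 0.31 (SE; edgeR adjusted p = 0.29). Fzd2, next in RPKM, was 100.4 and 218 CPM with CD34, against 105 and 135 CPM without it. Its groups overlapped, CD34+ replicate 2 being the highest and CD34+ replicate 1 the lowest, and its log2 fold change was 0.41 ± 0.41 (SE; edgeR adjusted p = 0.628). Without CD34+ replicate 2 its sign turned (-0.23), as it did on the RPKM scale (-0.069). Within a library, the RPKM ratio of Fzd1 to Fzd2 was 3.64 and 1.59 in CD34+ cells against 5.3 and 5.09 in CD34- cells.

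Fzd3, a receptor of axon guidance and planar polarity, was 13.2 and 11.5 CPM (CD34+) compared with 21.5 and 20.3 CPM (CD34-). The fractions did not overlap, and the log2 fold change was -0.74 ± 0.27 (SE; edgeR adjusted p = 0.279). Fzd5, 15.4 and 19 against 22.5 and 24.3 CPM, lay lower in the CD34+ libraries by a log2 fold change of -0.43 ± 0.27 (SE; edgeR adjusted p = 0.459). Fzd8 (19.5 and 28.3 against 22.4 and 39.2 CPM), Fzd7 (5.52 and 16.3 against 14.6 and 14.5 CPM), Fzd4 (3.1 and 11.8 against 6.96 and 6.08 CPM) and Fzd6 (3.2 and 6.01 against 3.25 and 5.33 CPM) overlapped between groups. CD34+ replicate 1 held the lowest level of all 4. Fzd9 and Fzd10 had at most 7 reads in a library. Of the 8 tested Frizzled genes 5 were negative and 3 positive, with a median of -0.38. On the RPKM and FPKM scales, which moved the median of all tested genes by -0.29 on log2 RPKM + 1 and log2 FPKM + 1 and by -0.40 on log2 RPKM + 0.1, all 8 were negative. All 8 were also negative without CD34+ replicate 2, and 4 were without CD34+ replicate 1 or CD34- replicate 2. Of the Lrp co-receptors, Lrp6 was 80.3 and 105 CPM in CD34+ cells and 97.3 and 89.3 CPM in CD34- cells, with a log2 fold change of 0.01 ± 0.25 (SE; edgeR adjusted p = 0.985) whose sign turned without CD34+ replicate 2 (-0.18) and with scaling by library size (-0.0047). Lrp5 was 5.13 and 5.05 against 6.28 and 5.95 CPM, a difference of -0.24 ± 0.38 (SE; edgeR adjusted p = 0.77).

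Rspo1 showed the largest difference of all tested members. Rspo1, which encodes a secreted potentiator of Wnt signalling known from ovary development and intestinal crypts, was 24.3 and 73.7 CPM with CD34, against 6.81 and 9.36 CPM without it. Both CD34+ libraries lay above both CD34- libraries, but the gap between them was wider than the gap to the CD34- libraries (49 ± 34.9 against 8.09 ± 1.81 CPM, mean ± SD, n = 2). The log2 fold change was 2.60 ± 0.55 (SE; edgeR adjusted p = 0.173). It was called by DESeq2 at an adjusted p of 0.000156, by the exact test of edgeR at 0.00132 and without a filter at 0.0117 (edgeR), and over all alternatives its adjusted p ran from 0.000156 to 0.63. Without CD34+ replicate 2 the log2 fold change was 1.61. Rspo3, the endothelial and stromal R-spondin, was 7.27 and 8.79 CPM (CD34+) compared with 3.63 and 3.62 CPM (CD34-). The groups were apart and the CD34- libraries nearly equal, with a log2 fold change of 1.16 ± 0.39 (SE; edgeR adjusted p = 0.255). Log2 RPKM + 1 and log2 FPKM + 1 understate changes of low genes, and both also moved the median of all tested genes by -0.29. On these scales the difference was 0.47 and 0.44 for Rspo3 and 1.77 and 1.66 for Rspo1. Rspo2 and Rspo4 gave 9 and 5 against 2 and 0 reads and 4 and 3 against 0 and 0 reads.

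Some markers of other cells lay on the same side as Rspo1 and Rspo3. All 10 endothelial markers were counted in every library, their groups were apart for all 10 (8 higher and 2 lower in CD34+ libraries), and their summed level was 107 and 79.6 against 43.7 and 47.3 CPM. Von Willebrand factor (Vwf) was 27.1 and 16.3 against 3.03 and 3.42 CPM. Of the 9 mesothelial markers in the table, 8 were tested and 3 of these lay apart, all higher in CD34+ libraries (37.5%). Of all tested genes 50.1% lay apart, split into 23.4% higher and 26.6% lower. The 3 were Wt1 at 206 and 120.0 against 57.7 and 79.3 CPM, Lrrn4 at 2.52 and 1.9 against 0.151 and 0.273 CPM and Upk3b at 3.2 and 1.03 against 0.303 and 0.273 CPM. Mesothelin (Msln) overlapped at 49.8 and 13.8 against 75 and 11.6 CPM, and the list's summed level, led by Krt8, was 820.1 and 589 against 778 and 406 CPM. Krt8, Krt18 and Krt19 are also in the list of epithelial and tumour markers given below, so both sums hold the same reads of these genes. No endothelial or mesothelial marker was at 0 in all libraries, and Lrrn4 and Upk3b were under 1 CPM in both CD34- libraries. The part of these cells in the R-spondin values was not tested.

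The receptors of the R-spondins ran the other way or overlapped. Lgr4 was 16 and 31.6 CPM in CD34+ cells and 32.7 and 63.6 CPM in CD34- cells. The groups were apart, although CD34+ replicate 2 lay next to CD34- replicate 1, and the log2 fold change was -1.02 ± 0.47 (SE; edgeR adjusted p = 0.338). It was -0.34 without CD34- replicate 2. Lgr5, a marker of epithelial stem cells and of some stromal cells, was 22.5 and 13.5 CPM with CD34, against 22.9 and 18.9 CPM without it, overlapping (log2 fold change -0.19, SE 0.34, edgeR adjusted p = 0.796). Lgr6 was under 4 CPM in every library, at 1.55 and 0.733 against 3.86 and 1.23 CPM. All 3 were negative, except that without CD34+ replicate 2 the sign of 1 of the 3 turned. Per gene length, Rspo1 over the sum of Lgr4 and Lgr5 was 1.67 and 4.41 in CD34+ cells against 0.328 and 0.308 in CD34- cells by RPKM.

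Secreted antagonists had a higher summed RPKM than the ligands or the Frizzled receptors in every library. Sfrp1, which binds Wnt ligands through a Frizzled-like domain, was the member with the highest RPKM in each library, at 2795 and 6409 CPM (CD34+) compared with 2076 and 4063 CPM (CD34-). Its fractions overlapped, and the replicate 2 libraries were the 2 highest. The log2 fold change of 0.57 ± 0.58 (SE; edgeR adjusted p = 0.633) was smaller than its SE, and it was -0.12 without CD34+ replicate 2. Sfrp2 (134 and 431 against 72.2 and 273 CPM) and Sfrp4 (48.8 and 114 against 42.1 and 76.9 CPM) followed the same order of libraries as each other, with both replicate 2 libraries above both replicate 1 libraries. Sfrp5 was 2.62 and 1.98 against 0.908 and 0.683 CPM, low but apart, with a log2 fold change of 1.54 ± 0.53 (SE; edgeR adjusted p = 0.26). Groups overlapped for Sfrp1, Sfrp2 and Sfrp4, and Frzb, described next, was negative. All 4 tested genes named Sfrp were positive. On log2 RPKM + 0.1 and on log2 FPKM + 1 this held for 3 of the 4, without CD34- replicate 1 also for 3, and without CD34+ replicate 2 for 1.

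Frzb was the only tested antagonist whose level was lower in both CD34+ libraries than in both CD34- libraries. Frzb, also called Sfrp3, was 62.5 and 122 CPM in CD34+ cells and 194 and 253 CPM in CD34- cells. Each CD34+ library lay below each CD34- library, with a log2 fold change of -1.27 ± 0.39 (SE; edgeR adjusted p = 0.23), opposite in sign to Sfrp1, Sfrp2, Sfrp4 and Sfrp5. Across the alternatives the fold change ran from -1.81 to -0.88 and the adjusted p from 0.0602 to 0.63. Some pericyte markers lay on the same side: of 8 in the table, 4 lay lower in both CD34+ libraries and 4 overlapped (50.1% of all tested genes did not overlap, 26.6% lower), with a summed level of 393 and 315 against 489 and 565 CPM, and none was at 0 in all libraries. Rgs5, a mural cell marker, was 2.13 and 7.33 against 45.5 and 89.7 CPM and Mcam 27.9 and 16.5 against 103 and 103 CPM, while Cspg4, the most abundant of the list, overlapped at 243 and 51.9 against 139 and 196 CPM. Their part in the level of Frzb was not tested.

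Both tested Dickkopf genes overlapped between the fractions. Dkk3, a divergent member of the family, was 467 and 686 CPM with CD34, against 476 and 908 CPM without it, overlapping, with a log2 fold change of -0.27 ± 0.44 (SE; edgeR adjusted p = 0.774) whose sign turned without CD34- replicate 2 (0.39). Dkk2 was 152 and 207 CPM (CD34+) compared with 102 and 538 CPM (CD34-), where CD34- replicate 2 stood far above the rest. Its log2 fold change was -0.86 ± 0.74 (SE; edgeR adjusted p = 0.578), and without CD34- replicate 2 both genes were positive. Dkk1 was too low to test, with 12 and 7 reads in CD34+ cells and 1 and 1 in CD34- cells. Wif1, which binds Wnt ligands through its own WIF domain, had the widest range of the tested members, 4.94 and 128 CPM in CD34+ cells and 34.6 and 115 CPM in CD34- cells, a 25.9-fold span. CD34+ replicate 1 was the low library, and the difference between groups was smaller than that spread (log2 fold change -0.21, SE 1.25, edgeR adjusted p = 0.947).

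Per gene length, Sfrp1 took 68% and 69.6% in CD34+ cells and 60.4% and 55.8% in CD34- cells of the summed RPKM of the 10 antagonists. It was first in all 4 libraries, and the second place belonged to Dkk3 in 3 libraries and to Sfrp2 in CD34+ replicate 2. Antagonists together stood above ligands in every library, with a summed RPKM ratio of 5.39 and 15.8 in CD34+ cells against 6.04 and 8.73 in CD34- cells. The ratio of Sfrp1 to the summed Frizzled receptors was 4.55 and 8.3 in CD34+ cells against 2.38 and 3.72 in CD34- cells. This ratio was higher in both CD34+ libraries, with Fzd1 lower in the denominator. These ratios use the same reads as the values above and were not tested.

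**Figure D3:**
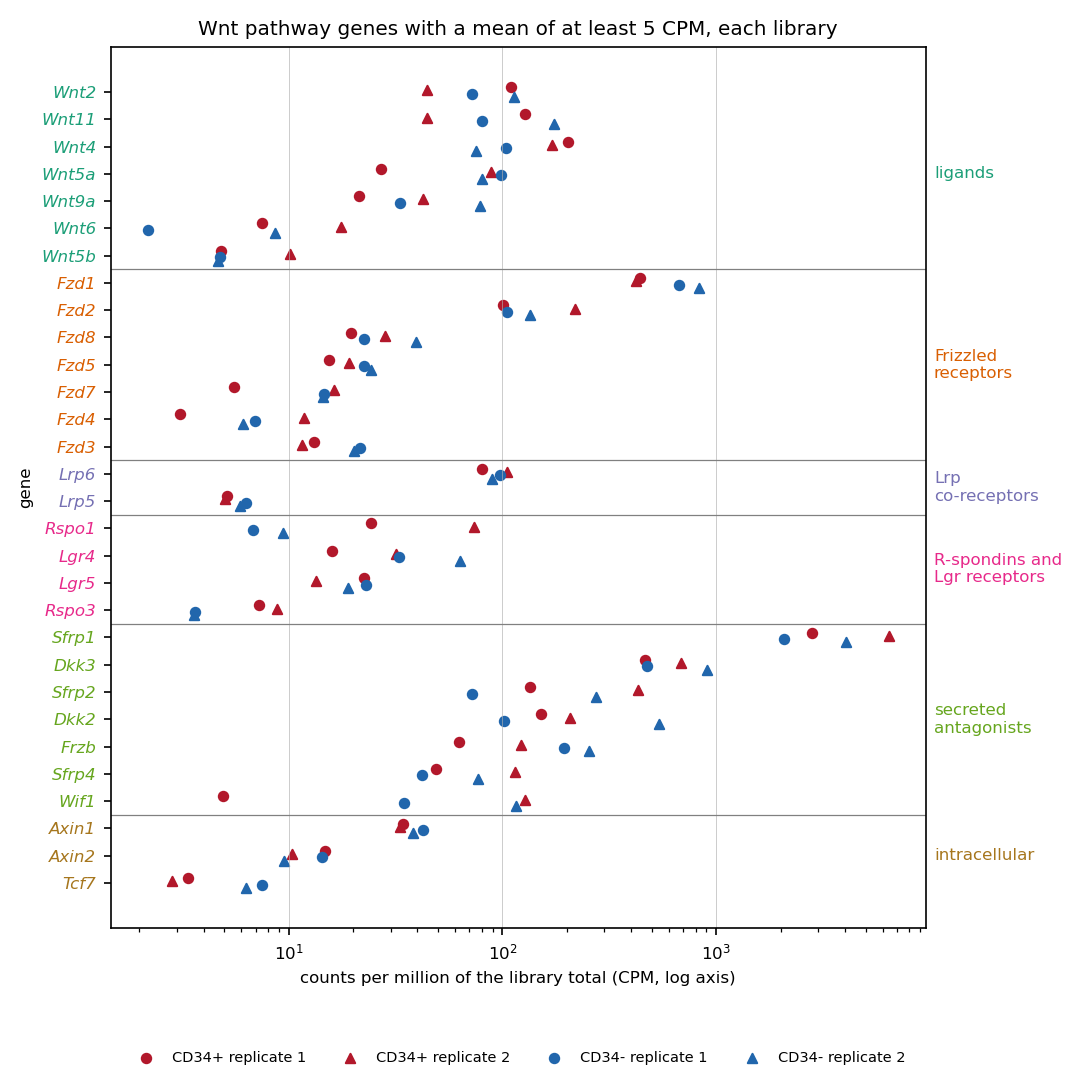
Level in CPM, scaled to the library total (log axis) of the 30 members with a mean of at least 5 CPM, grouped by role, with 1 point per library (red, CD34+; blue, CD34-; circles, replicate 1; triangles, replicate 2). Rspo1, Rspo3 and Wnt4 show both red points to the right of both blue points, Fzd1, Fzd3 and Frzb the reverse, and Sfrp1 and Wif1 show wide gaps between libraries of 1 colour.

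Of the intracellular members, Tcf7 had the lowest p. Axin1, the scaffold of the beta-catenin destruction complex, was 34.4 and 33 CPM with CD34, against 42.7 and 38.2 CPM without it. The groups were narrowly apart, with a log2 fold change of -0.24 ± 0.23 (SE; edgeR adjusted p = 0.611). Axin2, a feedback inhibitor and a widely used reporter of beta-catenin activity, was 14.7 and 10.3 CPM (CD34+) compared with 14.4 and 9.5 CPM (CD34-). It overlapped, with a log2 fold change of 0.10 ± 0.36 (SE; edgeR adjusted p = 0.905). Its sign turned without CD34+ replicate 1 (-0.20), without CD34- replicate 2 (-0.08) and on the RPKM scale (-0.22). Tcf7, encoding the factor TCF-1 of T cells and some mesenchyme, was 3.39 and 2.86 CPM in CD34+ cells and 7.49 and 6.29 CPM in CD34- cells, apart between groups, with a log2 fold change of -1.12 ± 0.41 (SE; edgeR adjusted p = 0.278). Lef1 was 3.88 and 1.83 against 4.54 and 3.49 CPM and overlapped. Of 8 T cell markers in the table, 5 were under 1 CPM in every library. Their summed level was 23.3 and 4.84 against 2.57 and 2.8 CPM, and Cd3e, the most abundant, was 19 and 0.293 against 0 and 0 CPM, with Cd3g also at 0 reads in both CD34- libraries. In CD34+ replicate 1 Cd3e had 196 reads, while Cd3d had 1 and Cd3g 2. Lck, the only one with enough reads to test, overlapped at 1.65 and 1.9 against 1.66 and 2.19 CPM (log2 fold change -0.11). The part of T cells in the level of Tcf7 was not tested.

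Reads of the 13 untested members were few and lay mostly in the CD34+ libraries. These were Wnt1, Wnt3, Wnt3a, Wnt8a, Wnt8b, Wnt9b, Wnt16, Fzd9, Fzd10, Rspo2, Rspo4, Dkk1 and Dkk4, with 61 and 44 reads in all in CD34+ cells and 23 and 13 in CD34- cells. For 12 of the 13 the mean CPM was higher in CD34+ libraries, and for 7 the groups did not overlap, all higher, beside 71.1% with a higher mean and 37.9% without overlap (36.4% higher and 1.47% lower) among the 8734 untested genes of the table. Of these 8734 genes, 65.9% and 65.7% had a read in CD34+ cells and 41.3% and 34.0% in CD34- cells, although the CD34+ libraries were not deeper. The part of this shift in the low members was not tested. Wnt8a, Wnt9b and Rspo4 had 0 reads in both CD34- libraries, which allows up to 0.227 CPM in replicate 1 and 0.205 CPM in replicate 2 (3 reads, counting error only).

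Further genes of the pathway were taken from 5 lists, and again 0 passed over all genes (edgeR). The list of beta-catenin targets also holds the members Axin2, Lgr5, Lef1 and Tcf7. Some genes, such as Apcdd1, stand in more than 1 list and are counted in each. For ligand processing and secretion 5 of 7 were negative, with a median of -0.43 and 1 at an unadjusted p under 0.05 (14.3%, beside 16.5% of all tested genes, of which 48.7% were positive). Wls, which carries Wnt proteins to the surface, was 152 and 264 CPM with CD34, against 287 and 397 CPM without it (log2 fold change -0.71, SE 0.37, edgeR adjusted p = 0.388). Porcn, the acyltransferase that attaches their lipid, was 27.8 and 33 against 41.1 and 43.2 CPM (log2 fold change -0.46, SE 0.24, edgeR adjusted p = 0.389). Both, named for their low p, were lower in each CD34+ library than in each CD34- library, as were 26.6% of all tested genes. The glypicans Gpc4 (37.8 and 40.3 against 52.5 and 79.1 CPM) and Gpc1 (402 and 217 against 442 and 407 CPM) had log2 fold changes of -0.75 and -0.43. On log2 FPKM + 1, which moved the median of all tested genes by -0.29, the differences of Porcn and Gpc1 were -1.04 and -1.08.

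Modulators at the receptor held the lowest p of these lists: 4 of 9 tested lay lower and 0 higher at an unadjusted p under 0.05, beside 6.65% and 9.81% of all tested genes, with a median of -0.39. Cthrc1, a secreted glycoprotein of activated fibroblasts that binds Wnt and Frizzled proteins, was 76.8 and 64.4 CPM (CD34+) compared with 381 and 181 CPM (CD34-). Its groups did not overlap, but the gap between the CD34- libraries was wider than the gap to the CD34+ libraries. The log2 fold change was -1.95 ± 0.38 (SE; edgeR adjusted p = 0.173). Apcdd1, a membrane inhibitor of Wnt signalling, was 4.84 and 2.64 against 19.1 and 13.3 CPM (log2 fold change -2.09, SE 0.44, edgeR adjusted p = 0.173). The inhibitor Tpbg (trophoblast glycoprotein) was 19.6 and 27.5 against 57.1 and 52.7 CPM (log2 fold change -1.20, SE 0.26, edgeR adjusted p = 0.176), and Kremen1, a receptor for Dkk proteins, 90.4 and 74.1 against 147 and 178 CPM (log2 fold change -0.97, SE 0.28, edgeR adjusted p = 0.224). All 4, named for their low p, were lower in both CD34+ libraries, as were 26.6% of all tested genes. In the same list 2 genes were higher in both. DESeq2 called Cthrc1 (adjusted p = 0.000263), Apcdd1 (0.00284) and Tpbg (0.032). Over all alternatives the adjusted p ran from 0.000263 to 0.63, 0.00284 to 0.63 and 0.0142 to 0.63 in the same order.

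Intracellular components were spread around 0, with 15 of 26 positive, a median of 0.10, and 4 higher and 0 lower at an unadjusted p under 0.05 (15.4%, beside 16.5% of all tested genes). These 4 were Gsk3a, Tcf7l1, Bcl9l and Apc2, the last at 2.33 and 1.76 against 0.908 and 0.615 CPM. From 5 CPM, the genes of lowest p were the kinase gene Gsk3a (52.1 and 39 against 26.3 and 26.4 CPM, log2 fold change 0.81), Tcf7l1 (36.7 and 24.5 against 19.3 and 16.1 CPM, 0.82), the co-activator gene Bcl9l (49.7 and 25.4 against 23.1 and 15.8 CPM, 0.98) and the co-repressor gene Tle3 (98.3 and 55.5 against 48.3 and 47.3 CPM, 0.71). Each, named for its low p, was higher in both CD34+ libraries, as were 23.4% of all tested genes. The whole list held 9 genes higher in both and 4 lower in both. On log2 FPKM + 1, which moved the median of all tested genes by -0.29, the differences were 0.13, 0.22, 0.18 and 0.10. That of Bcl9l was 0.40 without CD34+ replicate 1. Of 16 genes of co-receptors and cell polarity 8 were positive and 8 negative, with a median of -0.04. In this list 2 lay higher and 2 lower at an unadjusted p under 0.05 (25%, beside 16.5% of all tested genes). The higher were Nfatc1 and Celsr1 (2.91 and 2.56 against 1.13 and 0.82 CPM), and the lower Rhoa and Ptk7. The pseudokinase receptor genes Ptk7 (166 and 119 against 258 and 231 CPM, -0.76) and Ryk (206 and 256 against 352 and 322 CPM, -0.52) and the GTPase gene Rhoa (202 and 270.2 against 388 and 535 CPM, -0.96) were lower in CD34+ libraries, and the transcription factor gene Nfatc1 was higher (523 and 213 against 59.2 and 139.6 CPM, 1.89). The log2 fold change of Nfatc1 was 1.07 without CD34+ replicate 1 and 2.76 without CD34- replicate 2. DESeq2 called it at an adjusted p of 0.0177, and over all alternatives its adjusted p ran from 0.0177 to 0.635. For Ptk7 the difference was -1.43 on log2 FPKM + 1, with the same shift of the median.

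Beta-catenin target genes pointed both ways: of 18 tested, 9 were positive and 9 negative, with a median of 0.04, and 1 lay higher and 3 lower at an unadjusted p under 0.05 (22.2%, beside 16.5% of all tested genes). Of the lower ones, Apcdd1 was already counted with the modulators and Tcf7 is a member. The other was Twist1, a mesenchymal transcription factor (17.3 and 24 against 45.6 and 39.2 CPM, log2 fold change -1.01). Myc, a growth regulator with many other inputs, was the higher one (238 and 236 against 88.6 and 137 CPM, 1.08). Wisp2, also named after its values were seen, had the highest log2 fold change of the list (2.27, SE 1.08, edgeR adjusted p = 0.35). It was 191 and 810 against 22.1 and 180 CPM, its groups narrowly apart. The lowest of the list was Apcdd1 at -2.09. The feedback genes Axin2 and Lgr5, given above, overlapped between groups, as did the inhibitors Nkd1 (57.4 and 31.9 against 44.9 and 29.4 CPM) and Nkd2 (367 and 190.3 against 336 and 403 CPM), which were named after their values were seen.

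**Figure D4:**
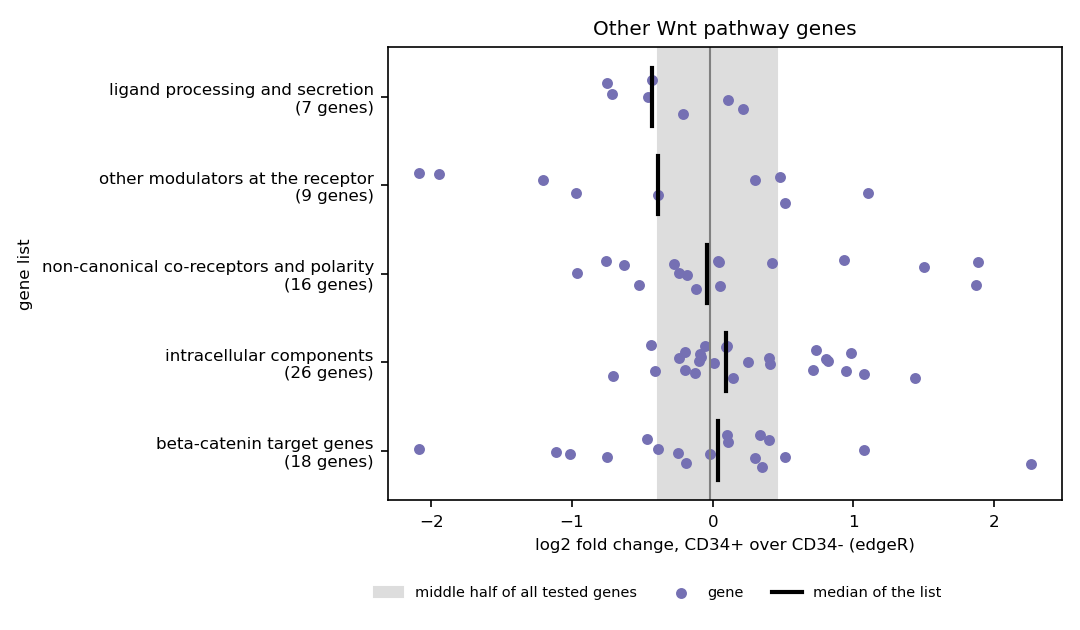
Log2 fold change of CD34+ over CD34- (edgeR, horizontal axis) of each tested gene (points) in 5 lists of Wnt pathway genes (rows), with the median of each list as a black bar and the 25th to 75th percentile of all 13875 tested genes shaded. The target list includes some members, and genes of several lists are drawn in each of them. The medians of the lists run from -0.43 for ligand processing and secretion to 0.10 for intracellular components.

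Markers of further cell types were also present, at levels that differed between the lists. The summed epithelial and tumour markers were 908 and 579 against 822 and 429 CPM, led by Krt8 at 219 and 205 against 263 and 142 CPM, with Tff1 at 0 in all libraries. Reads of Krt8, Krt18 and Krt19 were counted in the mesothelial sum as well. The myeloid sum was 275 and 163 against 154 and 93.5 CPM, led by Cd14 at 115 and 54.2 against 76.1 and 34.8 CPM. All 10 myeloid markers in the table had a positive log2 fold change, beside 48.7% of all tested genes. Groups overlapped for 7 of them, and 3 lay apart, all higher (30%, beside 23.4% of all tested genes). Schwann cell markers summed to 341 and 399 against 345 and 438 CPM, almost all of it Ncam1 at 329 and 391 against 326 and 427 CPM, and acinar markers to 8.33 and 26.2 against 10.5 and 11.1 CPM, led by Cpa1 at 1.84 and 18.8 against 2.65 and 6.42 CPM. CD34+ replicate 1 held the highest epithelial and myeloid sums and the lowest Wif1, Wnt5a, Fzd4 and Fzd7. Their part in these values was not tested.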

How the data were processed

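The members, the gene lists and the tests were chosen with earlier results of these data known. Per the submitters' processing notes, reads were processed with Bowtie2, TopHat2, HTSeq and edgeR on mm9; no version, annotation or strand setting is named there, so reads of overlapping genes on opposite strands cannot be told apart. RNA was amplified with MessageAmp, per the labels' protocols, and amplified copies are not independent molecules. Whole-number counts per gene were deposited, not normalized. The authors also deposited RPKM and, called bias-adjusted in the table's name, FPKM; these were used per length within a library and as alternatives. A further 14 columns in each table match no sample here and were not used.

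Counts of all 4 libraries were fitted with edgeR 4.0.16 (R 4.3.3; TMM, filterByExpr, quasi-likelihood F test, group as the only term) over 13875 genes, with Benjamini-Hochberg adjustment at 0.05; all tests are two-sided. The SE is the fold change over the square root of F. Residual degrees of freedom were 2, plus 4.17 from moderation. CPM use the column total. The fitting code was tested on simulated data. Alternatives used DESeq2 1.42.0, limma 3.58.1, other scalings and filters, a replicate block, and each library left out. Named genes were members from 5 CPM whose groups did not overlap, the 2 of highest mean RPKM per role, up to 4 of lowest p from 5 CPM per pathway list, Cd34 and Fap, and the most abundant marker of each other cell type; others are named as members or after their values were seen. All 52 names matched a RefSeq symbol of GRCm38.p6.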

Additional observations from a re-analysis of the deposited data

How the results depend on the processing

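The count of members called higher was 0 in the main test, 1 without a filter, 2 with DESeq2, 2 with edgeR's exact test and 1 with a replicate block; 0 were called lower in any of the 15 alternatives. Over all genes, the calls higher and lower were 194 and 137 without a filter, 396 and 180 with DESeq2, 470 and 206 with the exact test, 39 and 23 with the replicate block, 5 and 7 by limma on log2 RPKM + 1, and 32 and 66 on log2 RPKM + 0.1. With scaling by library size and with a filter of 1 CPM in 2 libraries they were 2 and 0. Leaving out each library gave 0 to 23 higher and 0 to 2 lower, the upper values without CD34+ replicate 2; the library left alone was assumed to vary like the other group. Deviations of same-numbered libraries correlated at 0.241 across genes, and no label says that a number pairs libraries. With the block Rspo1 was called (adjusted p = 0.0458, edgeR), as was Cd34 (0.015).

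Followed through the 15 alternatives were 39 genes (19 members, 18 other pathway genes, Cd34 and Fap, but no cell type marker), and 32 of them kept their sign in every one. The sign turned for Fzd2 by limma on log2 RPKM + 1, log2 RPKM + 0.1 and log2 FPKM + 1 (-0.069, -0.077 and -0.037), for Axin2 on the same scales (-0.22, -0.30 and -0.31) and for Lrp6 (-0.36, -0.41 and -0.23), which also turned with scaling by library size (-0.0047), without a filter (-0.073) and by limma voom (-0.0014). Leaving out libraries gave -1.08 to 0.27 for Wnt2, -1.55 to 0.23 for Wnt11, -0.23 to 0.85 for Fzd2, -0.18 to 0.18 for Lrp6, -0.12 to 1.26 for Sfrp1, -0.71 to 0.39 for Dkk3 and -0.20 to 0.35 for Axin2. The RPKM + 1, RPKM + 0.1 and FPKM + 1 scales moved the median of all tested genes by -0.29, -0.40 and -0.29. Turns of genes near 0 on those scales include that common shift. With no filter the median moved by 0.19, but it was taken over 20996 genes and not over the same 13875. The cause of the other turns was not tested. The spread between 2 libraries limits every call, and the 13 untested members had at most 12 reads in a library.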
